A study of Komagataella phaffii with 6 samples.

Results

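The pentose phosphate pathway of the yeast cytosol was followed through 5 genes of Komagataella phaffii, taken by locus tag from a table of 5040 genes. ZWF1, SOL3 and GND1 form the oxidative branch and TKL1 and TAL1-1 stand for the non-oxidative branch. The sugar phosphate isomerase and epimerase of the pathway could not be located, since the reference annotation gives no gene names, and are left out. The libraries came from the wild-type strain X-33, grown for 40 h on glycerol and then kept for 18 h in methanol medium, with ammonium sulfate (3 libraries, called here with nitrogen) or with no nitrogen source (3 libraries, without nitrogen). They are 3' end libraries from 300 ng of total RNA. The labels do not say whether the 3 replicates of a group were separate cultures, so p-values rest only on the spread between these samples, which may be technical. In the test of single genes, nearly all of that spread is taken from the trend over all genes. The gene names were given with the list of locus tags. The table and its reference annotation hold locus tags only, so these names rest on that list alone.

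The oxidative branch turns glucose 6-phosphate into ribulose 5-phosphate and carbon dioxide and yields NADPH, a reductant that yeasts use in biosynthesis, including the making of glutamate from ammonium by an NADPH-dependent dehydrogenase. The non-oxidative branch moves carbon units between sugar phosphates in reversible steps. In methylotrophic yeasts such rearrangements also renew xylulose 5-phosphate, the sugar that accepts formaldehyde made from methanol. Both groups were on methanol, so the comparison asks how the pathway's transcripts differ when nitrogen is missing.

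Values are CPM, read counts as a share of a library size scaled by TMM, a method that centres the bulk of genes. The libraries held 127303 to 435003 counts, and replicate 3 without nitrogen, the smallest, stands apart. Values without it are given beside several of the results that it moves. All 5 members passed the filter on low counts, with 20 to 1148 counts per library. In bulk samples, fewer cells transcribing a gene and less RNA per cell cannot be told apart.

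The fold changes of the 3 oxidative genes were all close to 1, and none passed the test. In the non-oxidative branch, TKL1 rose 1.33-fold without nitrogen and narrowly passed the test. TAL1-1 was at 0.896 times its level with nitrogen, and did not pass. Of the 5 members 1 rose, none fell and 4 did not pass (edgeR's quasi-likelihood test, adjusted p under 0.05 over 3330 genes). Among all genes tested 3.66% rose, 2.67% fell and 6.34% were called in either direction, so 1 call among 5 genes says little about the pathway as a whole. By unadjusted p under 0.05 in the same test, the count was also 1, beside 547 of the 3330 genes tested. The median log2 fold change was 0.02 over the members and -9.27e-05 over all tested genes.

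**Figure D1:**
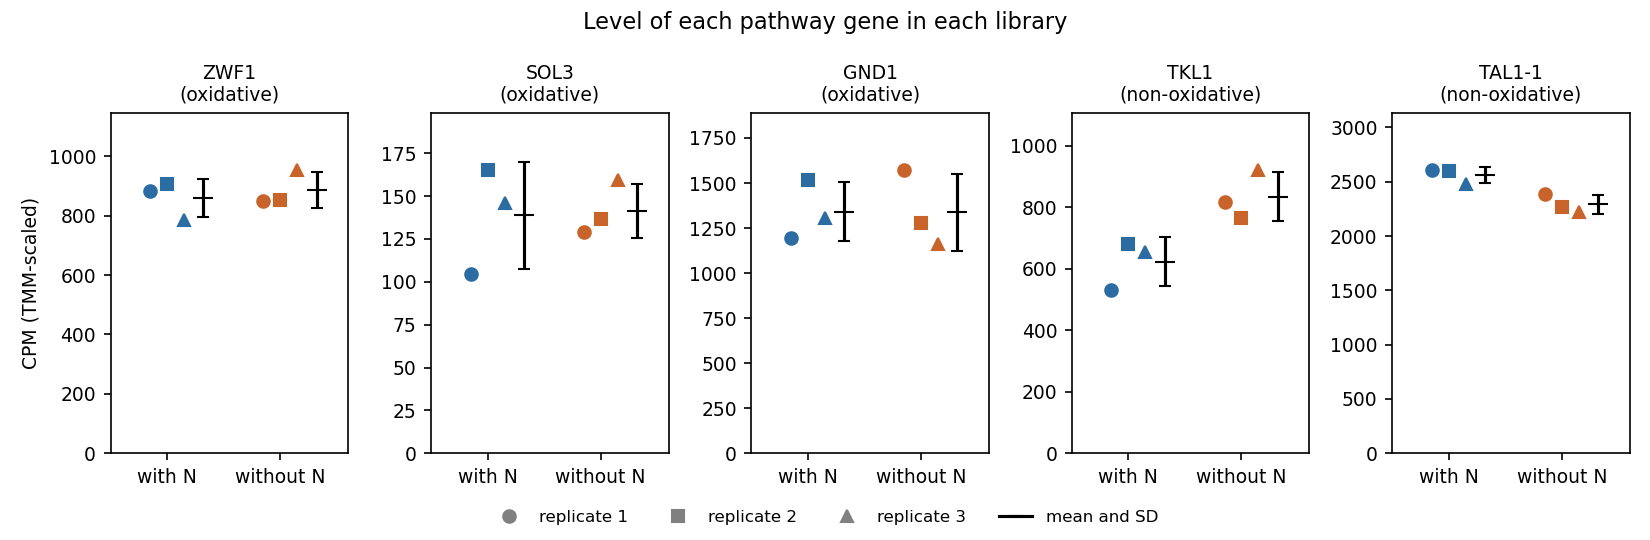
Level of each of the 5 genes in each library, in CPM on TMM-scaled library sizes, with an axis from 0 in each panel; points are libraries, and bars give the mean and SD of 3. The TKL1 points without nitrogen all lie above those with nitrogen, the TAL1-1 points all lie below, and the groups of ZWF1, SOL3 and GND1 overlap.

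ZWF1 (PAS_chr2-1_0308; chromosome 2, 578841 to 580355, plus strand, ASM2700v1) encodes glucose-6-phosphate dehydrogenase, the committing step and the first source of NADPH in the pathway. With nitrogen it stood at 885, 906 and 786 CPM in replicates 1, 2 and 3, and without nitrogen at 849.7, 854 and 955 CPM. The groups overlapped, and the lowest value was in replicate 3 with nitrogen and the highest in the shallow replicate 3 without nitrogen. The means were 859 ± 64.1 and 886 ± 59.4 CPM (SD, n = 3 each). The fit gave ZWF1 a log2 difference of 0.03 ± 0.13 (SE), with an adjusted p = 0.950 by edgeR. The 95% interval ran from 0.853-fold to 1.23-fold.

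SOL3 (PAS_chr3_1126; chromosome 3, 2170764 to 2171513, plus strand) encodes 6-phosphogluconolactonase, which opens the lactone that the first enzyme makes. It had 20 to 54 counts per library, the fewest of the 5 genes. With nitrogen it stood at 104.6, 165 and 146 CPM, and without nitrogen at 129, 136 and 159 CPM. The whole group without nitrogen fell inside the range of the group with nitrogen. SOL3 differed by 0.02 ± 0.25 (log2, SE), with an adjusted p = 0.973 by edgeR and a 95% interval from 0.726-fold to 1.42-fold, the widest of the 5.

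GND1 (PAS_chr3_0277; chromosome 3, 546054 to 547532, minus strand) encodes 6-phosphogluconate dehydrogenase, the second source of NADPH, which also releases carbon dioxide. Its levels with nitrogen were 1196, 1519 and 1309 CPM. Without nitrogen they were 1574, 1276 and 1161 CPM. The highest library of each group exceeded the lowest of the other by more than the means differed, and the means of 1341 ± 164 and 1337 ± 213 CPM were nearly equal (SD, n = 3 each). The fitted log2 difference of GND1 was 0.01 ± 0.13 (SE), at an adjusted p = 0.973 by edgeR, with a 95% interval from 0.849-fold to 1.20-fold.

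The directions of these 3 genes carry no weight. The log2 fold change of ZWF1 was -0.01 and that of SOL3 -0.03 without the shallow replicate 3 without nitrogen. That of GND1 lay between -0.13 and 0.10 with 1 library left out, its lowest value without replicate 1 without nitrogen.

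TKL1 (PAS_chr1-4_0150; chromosome 1, 1682276 to 1684315, plus strand) encodes transketolase, which moves a glycolaldehyde unit between sugar phosphates. With nitrogen it stood at 532, 682 and 656 CPM, and without nitrogen at 818, 766 and 923 CPM. Every library without nitrogen lay above every library with nitrogen, with the lowest value in replicate 1 with nitrogen and the highest in the shallow replicate 3 without nitrogen. The means were 623 ± 80.1 and 836 ± 80.0 CPM (SD, n = 3 each). TKL1 was thus higher by 0.41 ± 0.14 on the log2 scale (SE), with an adjusted p = 0.0484 by edgeR, and the 95% interval ran from 1.10-fold to 1.61-fold. By size, it ranked 451 from the top among 3330 log2 fold changes.

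The call of TKL1 was lost in 12 of 16 alternatives, though the log2 fold change stayed above 0 in each of them, between 0.30 and 0.48. It was lost with each of the 6 libraries left out in turn (edgeR adjusted p from 0.0583 without replicate 3 with nitrogen to 0.356 without replicate 1 with nitrogen; 0.177 without the shallow replicate 3 without nitrogen), and with DESeq2 (adjusted p = 0.142).

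TAL1-1 (PAS_chr2-2_0337; chromosome 2, 1751638 to 1752612, plus strand) encodes transaldolase, which moves a dihydroxyacetone unit between sugar phosphates. With nitrogen it stood at 2610, 2598 and 2478 CPM. Without nitrogen it stood at 2389, 2269 and 2219 CPM. The groups did not overlap, and the gap between the lowest library with nitrogen and the highest without was small against the level. The means were 2562 ± 73.3 and 2292 ± 87.1 CPM (SD, n = 3 each). The fitted log2 difference was -0.16 ± 0.12 (SE) and did not pass, at an adjusted p = 0.590 by edgeR. Its 95% interval ran from 0.759-fold to 1.06-fold, and the value lay below 0 in all 17 alternatives, from -0.20 to -0.13.

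**Figure D2:**
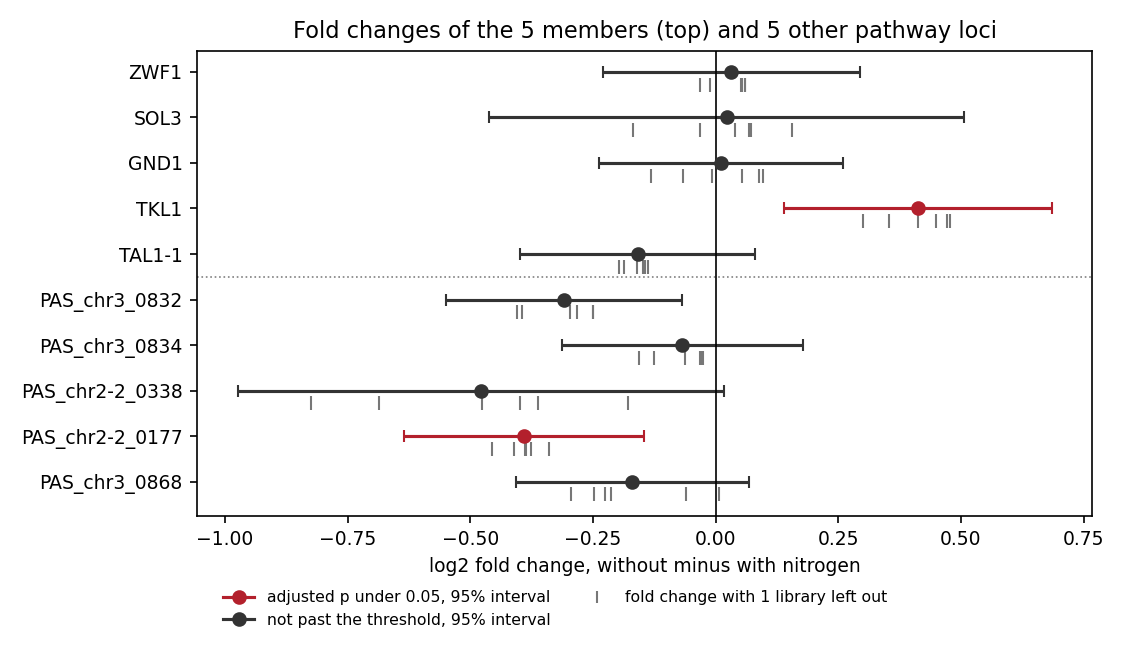
Log2 fold change, without minus with nitrogen, of the 5 members (above the dotted line) and 5 other loci of the pathway (below), from the fit over all genes; points and bars give the estimate and its 95% interval, and the small ticks under them the value with 1 library left out. TKL1 at 0.41 and PAS_chr2-2_0177 at -0.39 are the loci called, in red, and the intervals of ZWF1, SOL3, GND1 and TAL1-1 include 0.

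Groups that did not overlap were found for 2 of the 5 members, TKL1 and TAL1-1, against 20.2% of all genes tested. TKL1 was on the higher side, as were 10.3% of all genes, and TAL1-1 on the lower side, as were 9.91%. The replicates of TAL1-1 lay close together. Their spread, as a chi-square per degree of freedom against counting error alone, was 0.694 with nitrogen and 0.749 without, where a value near 1 is what counting gives. For GND1 the same measure was 6.94 and 7.66, so its libraries differed within a group by more than their counting error. TKL1 had 3.95 with nitrogen and 1.48 without, and ZWF1 1.49 and 0.643. SOL3 had 2.65 and 0.293. The pooled SD of log2(CPM + 1) within groups was 0.0484 for TAL1-1, 0.103 for ZWF1, 0.167 for TKL1, 0.201 for GND1 and 0.264 for SOL3, beside a median of 0.309 over all tested genes, most of which had fewer counts. The fit takes nearly all of a gene's spread from the trend over all genes (985 prior degrees of freedom), so the small spread of TAL1-1 hardly enters its SE, nor does the wide spread of GND1.

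Summed over the 5 genes, the pathway took nearly the same share of the transcript counts in both media. The share was 0.539%, 0.564% and 0.516% of all counts in replicates 1, 2 and 3 with nitrogen, and 0.546%, 0.530% and 0.535% without. The group without nitrogen lay wholly inside the range of the other, at 0.537% ± 0.00826 against 0.539% ± 0.0239 (SD, n = 3 each). In the shallow replicate 3 without nitrogen, the exact (Clopper-Pearson) 95% interval of the share ran from 0.496% to 0.577%; such intervals cover counting error only.

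The ratio of the branches within a library does not depend on scaling. As log2 of summed oxidative over summed non-oxidative counts it was -0.52, -0.34 and -0.48 with nitrogen, and -0.33, -0.42 and -0.47 without. The groups overlapped, at -0.45 ± 0.10 and -0.41 ± 0.07 (SD, n = 3 each), a difference of 0.04 (0.07 without the shallow replicate 3) that was smaller than the spread between replicates. The difference turned to -0.10 when each gene had equal weight, as the mean of log2(CPM + 1) in each branch, since TAL1-1 then no longer outweighs TKL1. No direction between the branches is given by these data, and no p is given for sums of chosen genes.

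Within the non-oxidative branch the ratio of the genes separated the groups, as it had to. TKL1 was higher and TAL1-1 lower in every library without nitrogen than in any with it. The ratio therefore restates those levels and is not a separate observation. The log2 ratio of TKL1 to TAL1-1 was -2.29, -1.93 and -1.92 with nitrogen and -1.55, -1.57 and -1.27 without. Every library without nitrogen lay above every library with it, and replicate 1 with nitrogen and the shallow replicate 3 without nitrogen were the extremes. The means were -2.05 ± 0.21 and -1.46 ± 0.17 (SD, n = 3 each), a difference of 0.59. It shrank to 0.49 without the shallow replicate 3 without nitrogen, and to 0.46 without replicate 1 with nitrogen. The exact two-sided permutation p was 0.1, the smallest that 3 libraries against 3 can give, and 0.2 when adjusted over the 10 pairs of members. Groups that do not overlap always give this smallest p, so it adds no support.

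Of these 10 pairs 5 had groups that did not overlap, and 4 of the 5 hold TKL1. Among all pairs of tested genes with a count in every library the share was 19.2%, and pairs that share a gene are not independent. The log2 ratio of GND1 to TKL1 was 1.17, 1.16 and 0.996 with nitrogen and 0.94, 0.74 and 0.33 without, with the lowest value in the shallow replicate 3. Its difference of -0.44 shrank to -0.27 without that library. The ratio of ZWF1 to TKL1 went from 0.47 ± 0.24 to 0.09 ± 0.06 (log2; SD, n = 3 each), and its difference of -0.38 shrank to -0.25 without replicate 1 with nitrogen. That of SOL3 to TKL1 went from -2.19 ± 0.15 to -2.56 ± 0.09. The remaining pair was ZWF1 to TAL1-1, from -1.58 ± 0.07 to -1.37 ± 0.14, a difference of 0.21 that shrank to 0.13 without the shallow replicate 3 without nitrogen. All 3 pairs within the oxidative branch overlapped. The log2 ratio of ZWF1 to GND1, the NADPH-forming steps, was -0.64 ± 0.18 with nitrogen and -0.58 ± 0.30 without (exact permutation p = 0.8). Without the shallow replicate 3 without nitrogen, its difference turned from 0.06 to -0.10. That of SOL3 to GND1 turned from 0.06 to -0.13.

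**Figure D3:**
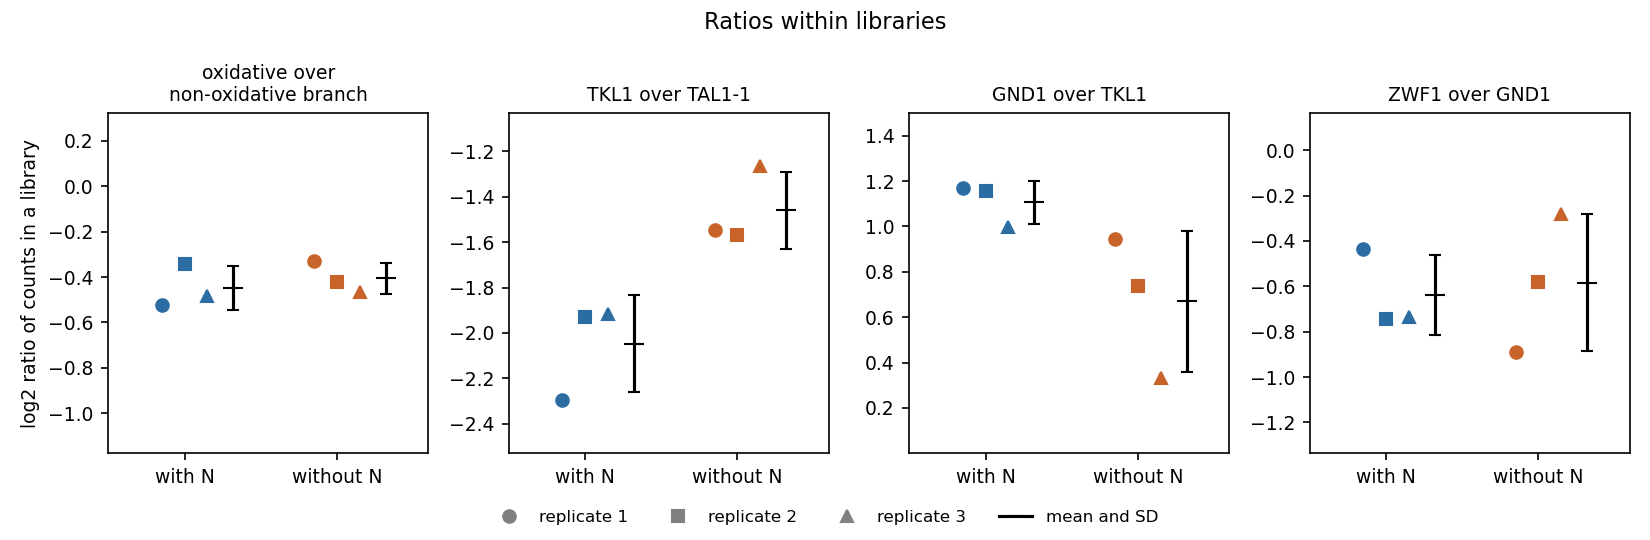
Log2 ratios of counts within each library, for the summed oxidative over the summed non-oxidative branch and for 3 pairs of genes; points are libraries, bars give the mean and SD of 3, and each panel spans the same log2 range. The branch ratio overlaps between the groups, TKL1 over TAL1-1 is higher and GND1 over TKL1 lower without nitrogen in every library, and ZWF1 over GND1 overlaps.

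As a share of the counts of the 5 genes, TKL1 took 9.99%, 11.6% and 12.2% with nitrogen and 14.2%, 14.4% and 17.0% without. TAL1-1 took 49.0%, 44.2% and 46.1% with nitrogen and 41.5%, 42.8% and 41.0% without. These shares sum to 100% in a library, so they restate the ratios and are not separate observations. The mean share of TKL1 was 3.96 percentage points higher without nitrogen (3.05 without the shallow replicate 3), and that of TAL1-1 went from 46.4% ± 2.39 to 41.7% ± 0.947 (SD, n = 3 each).

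A list of 5 other loci was written from prior knowledge of K. phaffii for functions that work beside these enzymes: dihydroxyacetone synthase, which transfers carbon from xylulose 5-phosphate to formaldehyde, a further transaldolase, and the bisphosphatases of sedoheptulose and fructose. No source used here pairs these locus tags with names, so they are given by tag. Of the 5 loci none rose, 1 fell and 4 did not pass (edgeR, adjusted p under 0.05), beside 2.67% of all genes that fell. All 5 had a log2 fold change under 0, between -0.48 and -0.07, and the median was -0.31. Over all tested genes 1668 of 3330 lay under 0. The list was chosen with earlier results of these data known, so the shared sign is not an independent observation.

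The locus that fell was PAS_chr2-2_0177 (chromosome 2, 2053578 to 2054306). It stood at 1849, 2067 and 2182 CPM with nitrogen and at 1508, 1544 and 1607 CPM without. The groups did not overlap, and the means were 2033 ± 169 and 1553 ± 50.2 CPM (SD, n = 3 each). It was lower by a log2 difference of -0.39 ± 0.12 (SE), at an adjusted p = 0.0348 by edgeR. Its call was lost in 7 of 16 alternatives, 5 of them with a library left out, namely every library except replicate 1 with nitrogen (adjusted p from 0.0577 without the shallow replicate 3 without nitrogen to 0.171 without replicate 2 without nitrogen). The log2 fold change stayed between -0.46 and -0.34 over all 16.

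PAS_chr3_0832 and PAS_chr3_0834, equal in coding length at 2124 bp, differed by -0.31 ± 0.12 (log2, SE; edgeR adjusted p = 0.127) and -0.07 ± 0.12 (adjusted p = 0.876). PAS_chr3_0832 passed in 3 of 16 alternatives, with limma-voom (adjusted p = 0.0167), with total counts only (edgeR adjusted p = 0.0413) and without replicate 1 with nitrogen (edgeR adjusted p = 0.0472), and its 95% interval of -0.55 to -0.07 excludes 0. Were PAS_chr3_0832 and PAS_chr3_0834 near-identical in part, the counting could split or drop their shared reads, and their sum was not fitted. PAS_chr3_0868 had -0.17 ± 0.12 (edgeR adjusted p = 0.545), with groups that overlapped. None of these 3 lay above 0, the side on which TKL1 lay.

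PAS_chr2-2_0338 lies next to TAL1-1 on the same strand, with 331 bp between the coding regions. It had 14 to 54 counts per library, at 116, 186 and 175 CPM with nitrogen and 153, 78.3 and 111 CPM without. The groups overlapped, and the locus differed by -0.48 ± 0.25 (log2, SE; edgeR adjusted p = 0.330). Were the loci near-identical in part, the authors' counting could split reads between them. With their counts summed, the log2 fold change was -0.17 (edgeR adjusted p = 0.531), close to that of TAL1-1 alone. TAL1-1 had 279 to 1148 counts per library, so the sum had to lie close to it. The sum therefore cannot show whether reads were split, and it would not restore reads dropped for mapping to both loci.

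All 5 members have a single coding exon, with coding lengths of 1515 bp for ZWF1, 750 bp for SOL3, 1479 bp for GND1, 2040 bp for TKL1 and 975 bp for TAL1-1. None overlaps a neighbouring coding region: the gaps to the next gene downstream ran from 65 bp at SOL3, whose neighbour points towards it, to 516 bp at GND1. The strand setting of the counting is not given in the sources used here, so reads of close neighbours that point at each other could not be told apart where transcripts overlap. Of the 5 downstream neighbours, 4 were below the filter on low counts. The upstream neighbour of ZWF1, PAS_chr2-1_0307, on the same strand at a distance of 1058 bp, rose by 1.47 on the log2 scale (edgeR adjusted p = 6.65e-06), while ZWF1 itself did not pass; it was singled out after its value was seen.

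**Figure D4:**
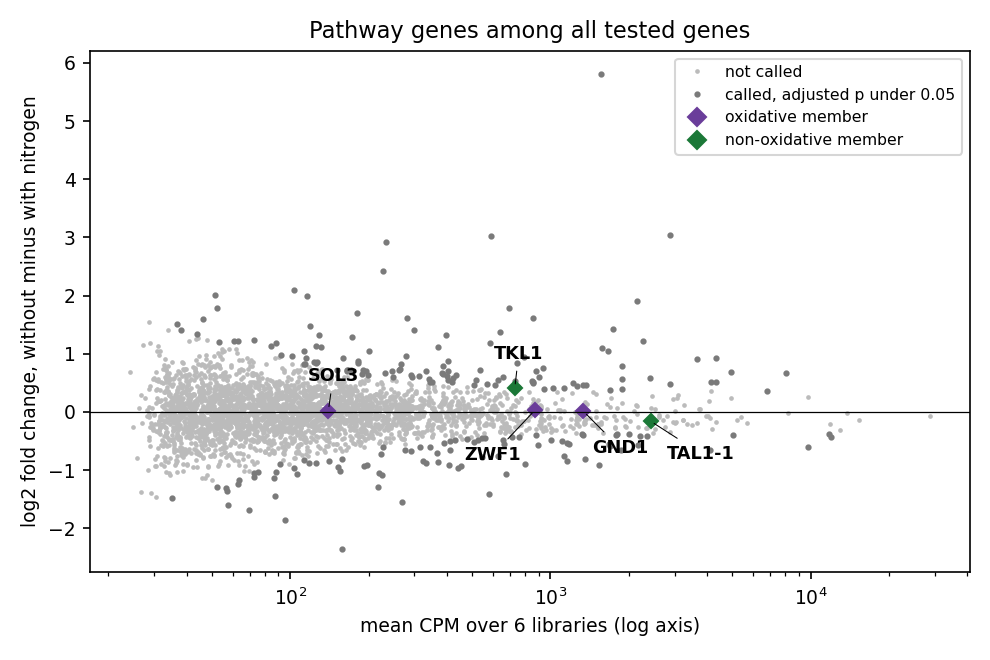
Log2 fold change, without minus with nitrogen, against the mean CPM over 6 libraries (log axis) for 3330 tested genes; called genes are darker, and diamonds mark the 5 members. The members lie near 0, with TKL1 highest at 0.41 and TAL1-1 lowest at -0.16.

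The genes most like each branch in pattern are given as a description. Likeness was the root mean square difference of mean-centred log2(CPM + 1) over the 6 libraries, among 1708 other genes with a mean of at least 100 CPM. Nearest to the summed oxidative branch were PAS_chr3_0393 (0.0509) and PAS_chr3_0506 (0.0538), against a median of 0.254 over the 1708 genes. PAS_chr3_0506 was also nearest to the summed non-oxidative branch (0.0255), followed by PAS_chr2-2_0419 (0.0428). The summed branches themselves hardly differed between the media, so small fold changes of these 3 genes follow from how they were chosen. The points share library depth and scaling.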

How the data were processed

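The authors deposited 1 table of raw read counts per gene for all 6 libraries, with no normalization. The tools were Trimmomatic, HISAT2 and featureCounts, per the submitters' processing notes. Their versions, the strand setting and the handling of multiply mapped reads were not given in the sources used here. Per the labels' protocols, libraries were made with a QuantSeq forward kit, which reads 1 fragment near the 3' end of a transcript. All 5040 deposited lengths are multiples of 3, so counts cover coding sequence only, and fragments wholly within a 3' untranslated region would not be counted. Levels are therefore compared between media and not between genes. All 5040 locus tags match the reference annotation (ASM2700v1), which gives no gene symbols.

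Counts were tested with edgeR 4.0.16 in R 4.3.3: filterByExpr (minimum count 10), TMM scaling, quasi-likelihood F-test, two-sided, Benjamini-Hochberg adjustment over 3330 genes, threshold 0.05. SE is the log2 fold change divided by the square root of F. Ratios of gene pairs were compared by exact permutation tests. Alternatives were other scalings, DESeq2 1.42.0, limma-voom 3.58.1, other filters, a replicate block, thinning to 127303 counts (1 draw) and leaving out each library. No pair of replicates looked like 1 library deposited again: over the 6 pairs, chi-square divided by its degrees of freedom was 1.73 to 2.48. The rule for named genes took the 5 members, the 5 listed loci and the 2 genes most like each branch; 1 neighbour of ZWF1 is named outside it. The pair ratios, their permutation tests and each gene's share of the members' counts were not among the planned results. Their values with a library left out were added after the data were seen. Members and lists were chosen with earlier results of these data known.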

Additional observations from a re-analysis of the deposited data

How the results depend on the processing

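Over all genes, 211 were called, and 119 with DESeq2, 134 with thinning and 129 to 183 with a library left out (the lowest were on leaving out replicate 2 of the group with nitrogen, 132, or replicate 1 or 2 of the other group, 132 and 129). TKL1 kept its direction throughout and its call under upper-quartile scaling, total counts only, edgeR's robust setting and the stricter filter. It lost the call, so that 0 members were called, with RLE size factors (log2 fold change 0.41, adjusted p = 0.0517), DESeq2 (0.41), limma-voom (0.41, adjusted p = 0.0517), no filter (0.41), thinning (0.33) and each library left out (0.30 to 0.48; 0 members called in each). TAL1-1 did not pass in any of 17 alternatives. ZWF1, SOL3 and GND1 did not pass in any of 16 each, but their signs turned: ZWF1 and SOL3 with thinning (-0.041 and -0.036), GND1 with the stricter filter (-0.0014), and with a library left out, where ZWF1 ran from -0.031 to 0.060, SOL3 from -0.17 to 0.16 and GND1 from -0.13 to 0.096. PAS_chr3_0868 ran from -0.29 to 0.0062 with a library left out. Of the 5 other loci 2 were called with total counts only and with limma-voom, 0 with thinning, and 0 to 2 with a library left out. The branch difference was -0.10 with equal weights per gene and 0.0060 to 0.099 with a library left out, and the members' summed share differed by -0.014 to 0.0099 percentage points. With the replicate block, 168 genes were called, TKL1 had a log2 fold change of 0.42 (edgeR adjusted p = 0.0848), GND1 -0.0010, and 0 members and 0 of the 5 other loci were called. Deviations of same-numbered libraries correlated at -0.0682, -0.0358 and -0.0618, which gave no sign that replicate numbers mark pairs. Differently numbered libraries were not compared, and the median count of tested genes was 13 to 45 per library, so pairing could have been missed. The causes were not tested. Thinning and leaving out libraries lower the depth or the number of samples by construction. Depth limits SOL3 most, at 20 to 54 counts.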
